A study of Rattus norvegicus with 56 samples.

Results

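Timd2 encodes the cell surface receptor TIM-2 (T cell immunoglobulin and mucin domain containing 2), and its signal was followed in the hippocampus and parietal cortex of 24 male Long-Evans rats. The gene was chosen by its signal difference between stimulated and sham young animals in these same data, so the young values below are a description and carry no test. Every probe was searched whose accession maps through RefSeq to rat Timd2, which gave 1 probe of the 45598 on the array (transcript NM_001013855), printed as 1 spot per array. Its values therefore rest on a single spot and a single transcript target.

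Intermittent theta burst stimulation (iTBS) is a patterned form of transcranial magnetic stimulation, given here through a coil placed over the skull, while in sham animals the coil was kept at a distance from the head. The young groups were Y_Sham and Y_iTBS (6 to 7 months, 4 animals each). Per the labels, the aged groups (26 to 27 months) were divided on water maze performance, with unimpaired animals named AU and impaired animals AI. They comprised 4 AU_Sham, 5 AU_iTBS, 4 AI_Sham and 3 AI_iTBS animals. All animals, sham included, had isoflurane, dexmedetomidine sedation and its reversal with Antisedan, and tissue was collected 48 h later. The number of animals is that of the labels, which name more than the study's methods give for this experiment, and whether every label stands for a separate animal was not settled.

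TIM proteins carry an immunoglobulin domain and a mucin stalk and are best known from immune cells, where they bind ligands such as exposed phosphatidylserine. TIM-2 is a rodent member, a receptor for H-ferritin, the heavy subunit of the iron storage protein, and for semaphorin 4A. It has been described on T and B cells, and in rodent brain on oligodendrocytes, where it takes up H-ferritin as a source of iron. Whole tissue was measured, so fewer cells that carry the transcript and less transcript per cell cannot be told apart. No probe or protein sequence of Timd2 was used here.

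Across the 56 arrays, 59.3% to 69.7% of probes were well above background, the scanner software's flag for a spot that clearly exceeds its surroundings. Normalized signal is given on a log2 scale on which 0 is the mean of an array, and the dimmest probe still well above background lay between -3.25 and -2.26. Technical repeats covered 3 animals. Of the 7 repeats 6 were most like their own first array, and the exception was the cortex repeat of AI_iTBS animal 2, which correlated at r = 0.102 with its own first array and at r = 0.691 with the cortex of AI_Sham animal 2 over the 500 most variable bright probes. Scan days were 3, and each group was spread over more than 1 of them in both regions.

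Timd2 was a dim probe near the limit of detection. It was well above background in 20 of 24 animals in hippocampus and in 18 of 24 in cortex. The 4 animals without a clear hippocampal signal were Y_Sham 1, 2 and 4 and AU_iTBS 4, and the same 4 lacked it in cortex, together with AU_Sham 3 and 4. For these animals a normalized value is only a bound on a low signal.

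The spot itself showed the same split before any normalization. In hippocampus the processed signals of the Y_Sham animals were 16.5, 15.5, 70.2 and 12.3, and those of the Y_iTBS animals 113, 68.4, 86.7 and 95.5. In cortex they were 17.1, 4.62, 38.5 and 7.72 in Y_Sham and 52.4, 91.3, 66.2 and 67.5 in Y_iTBS. In both regions 3 of the 4 Y_Sham spots were several times dimmer than any Y_iTBS spot, and Y_Sham 3 was the exception.

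Normalized hippocampal signals of the Y_Sham animals were -3.81, -3.65, -1.48 and -3.78 (mean -3.18 ± 1.13, SD, n = 4). Those of the Y_iTBS animals were -1.39, -1.06, -0.86 and -1.05 (mean -1.09 ± 0.22, SD, n = 4). With the 3 arrays of Y_Sham 3 averaged, the lowest Y_iTBS animal was only slightly above it, so that the groups were separate but their edges met. On its first array alone Y_Sham 3 was at -1.28, above Y_iTBS 1, so that on first arrays the groups overlapped. The difference of the means was 2.09 (SE 0.461), and 1.44 (2.71-fold) when each dim Y_Sham value was replaced by the floor of its own array, its dimmest probe that was still well above background.

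In cortex the Y_Sham animals had -3.31, -4.87, -1.82 and -4.14 (mean -3.53 ± 1.31, SD, n = 4) and the Y_iTBS animals -1.53, -0.46, -1.11 and -1.06 (mean -1.04 ± 0.44, SD, n = 4). Here the groups did not overlap, and Y_Sham 3 was again the animal next to the stimulated group. The difference was 2.49 (SE 0.499), or 1.53 (2.89-fold) with the dim values at that floor. These values chose the gene, and no probe of the array passed an adjusted p of 0.05 in the young comparison of either region (0% of 32503 in hippocampus and of 32728 in cortex, limma with Benjamini-Hochberg adjustment). At an unadjusted p under 0.05 the shares of probes were 4.51% and 2.79%.

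The high signal of Y_Sham 3 was present on each of its arrays. Its processed signals were 70.2, 59.0 and 56.1 on 3 hippocampal arrays and 38.5, 51.2 and 57.5 on 3 cortical arrays, all well above background. On the normalized scale its repeats differed from the first array by -0.24 and -0.37 in hippocampus and by 0.29 and 0.53 in cortex, less than the gap of more than 1 unit to the other Y_Sham animals. AU_iTBS 4, the other animal measured again with a dim spot, was dim on both cortical arrays (18.8 and 11.9). The young difference was also seen within scan days as far as these held both groups. On the first scan day it was 1.64 in hippocampus and 2.10 in cortex (3 iTBS and 2 sham animals), and on later days 2.34 and 2.55 (1 iTBS and 2 sham animals).

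**Figure D1:**
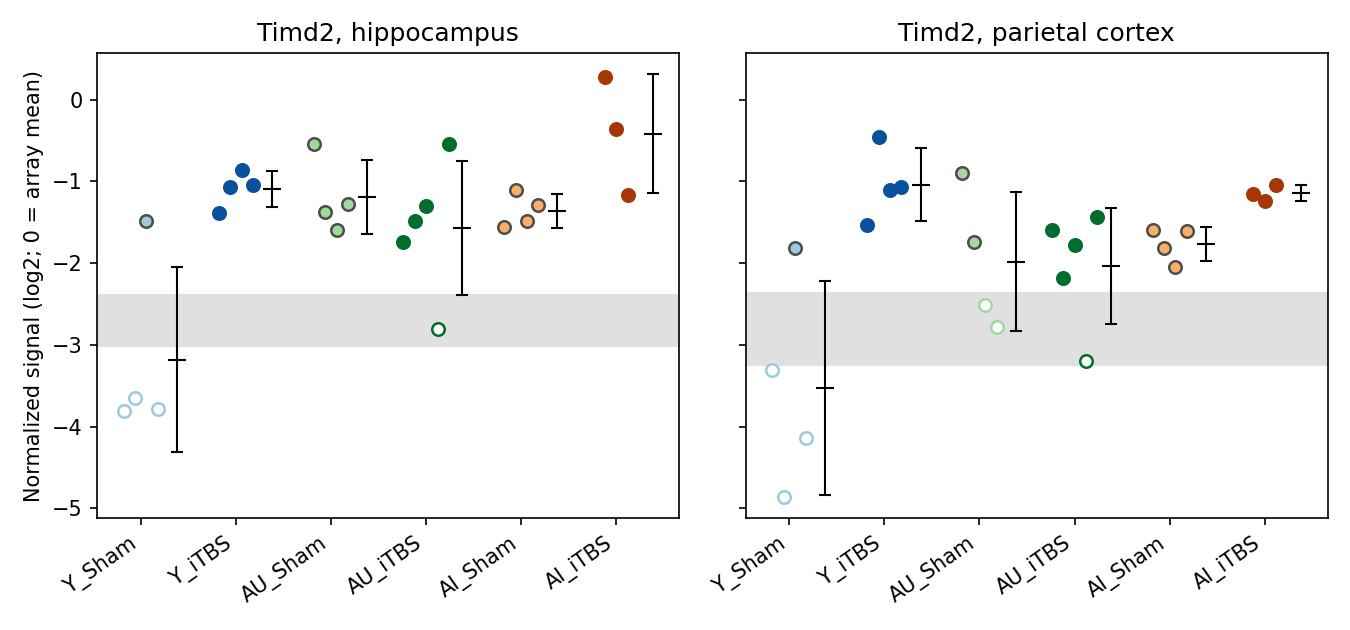
Normalized Timd2 signal (log2, 0 is the array mean) of each animal in hippocampus (left) and parietal cortex (right), by group. Open points are animals whose spot was not well above background, the grey band spans the lowest signals well above background on the first arrays of that region, and the bars beside the points give the group mean and SD. The other 3 Y_Sham animals lie below the band in both regions, and Y_Sham 3 at -1.48 and -1.82 lies near the aged animals.

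In hippocampus the aged sham animals did not share the low level of most young sham animals. Hippocampal signals were -0.55, -1.37, -1.59 and -1.27 in AU_Sham (mean -1.20 ± 0.45, SD, n = 4) and -1.56, -1.10, -1.49 and -1.29 in AI_Sham (mean -1.36 ± 0.21, SD, n = 4), and all 8 spots were well above background. In cortex AU_Sham had -0.90, -1.74, -2.52 and -2.78 (mean -1.99 ± 0.85, SD, n = 4) and AI_Sham -1.60, -1.81, -2.05 and -1.60 (mean -1.77 ± 0.21, SD, n = 4). There AU_Sham 3 and 4, like most Y_Sham animals, were not well above background. Their cortical values are bounds and do not set them apart from Y_Sham. Each hippocampal range reached down to or below the level of Y_Sham 3 and stayed above the other Y_Sham animals. Because the Y_Sham animals took part in the choice of the gene, this age difference was not tested.

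Ordered by mean hippocampal signal, the groups ran AI_iTBS, Y_iTBS, AU_Sham, AI_Sham, AU_iTBS and Y_Sham. In that order every pair of neighbours overlapped, including AU_iTBS and Y_Sham, whose means were 1.61 apart. In cortex the order was Y_iTBS, AI_iTBS, AI_Sham, AU_Sham, AU_iTBS and Y_Sham. There only AI_iTBS and AI_Sham had ranges that did not overlap. Y_Sham was the lowest group in both regions.

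Whether stimulation changed Timd2 in aged animals could be tested, since the means compared used none of the animals that chose the gene (the limma fit took its spread from all 24 animals). In aged unimpaired rats no change was found. The AU_iTBS animals had hippocampal signals of -1.74, -1.48, -1.30, -2.80 and -0.54 (mean -1.57 ± 0.82, SD, n = 5), which spanned the range of the AU_Sham animals on both sides. The difference was -0.38 (SE 0.437, limma adjusted p = 1, exact permutation p = 0.413 over 126 arrangements), and 0% of the 32503 probes tested were called, while 2.29% had an unadjusted p under 0.05. In cortex the AU_iTBS signals were -1.60, -2.18, -1.77, -3.20 and -1.44 (mean -2.04 ± 0.71, SD, n = 5), with a difference of -0.05 (SE 0.473, limma adjusted p = 0.974, exact permutation p = 0.913). AU_iTBS 4 was the lowest of these animals in both regions. With the animals of the first scan day alone (2 iTBS and 3 sham) the differences were -0.26 and 0.03, and on later days (3 iTBS and 1 sham) -0.96 and -0.96.

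In aged impaired rats the stimulated animals had the higher means in both regions, without passing the adjusted test. Hippocampal signals of the AI_iTBS animals were 0.28, -0.36 and -1.17 (mean -0.42 ± 0.73, SD, n = 3). AI_iTBS 1, with a processed signal of 412, was the brightest Timd2 spot of the series, whereas AI_iTBS 3 lay within the range of AI_Sham. The difference was 0.95 (SE 0.497, limma unadjusted p = 0.0713, adjusted p = 1, exact permutation p = 0.0571, 3 of 3 above the sham mean), where 1.95% of probes had an unadjusted p under 0.05 and 0% were called. It was 0.60 without AI_iTBS 1, 1.32 without AI_iTBS 3 and 0.57 with normexp background correction and quantile normalization (SE 0.191, limma unadjusted p = 0.00722, adjusted p = 1). With dim values at the floor of their arrays the difference was again 0.95 (SE 0.416, limma unadjusted p = 0.0336, not passing adjustment).

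In cortex the AI_iTBS signals were -1.16, -1.24 and -1.04 (mean -1.15 ± 0.10, SD, n = 3), and all lay above the highest of the AI_Sham animals. The difference was 0.62 (SE 0.539, limma unadjusted p = 0.265, adjusted p = 1). Its SE came from the spread shared by all 6 groups, of which Y_Sham had the largest SD (1.31). With dim values at the floor of their arrays the SE was 0.345 (limma unadjusted p = 0.0876, not passing adjustment). The exact permutation p was 0.0286, the smallest that 3 against 4 animals allow, and 0.171 after Benjamini-Hochberg adjustment over the 6 aged comparisons of Timd2. In this comparison 2.66% of all probes had an unadjusted p under 0.05 and 0% were called. The value of AI_iTBS 2 averages a first array at -0.63 and the repeat at -1.85 that did not match it, and without that repeat the difference was 0.82 (SE 0.543, limma adjusted p = 1). With normexp and quantile normalization it was 0.28 (SE 0.182, limma adjusted p = 1). Within scan days the AI difference was 0.53 in hippocampus and 0.68 in cortex on the first day (2 iTBS and 3 sham), and 1.85 and 0.44 on later days (1 animal each).

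**Figure D2:**
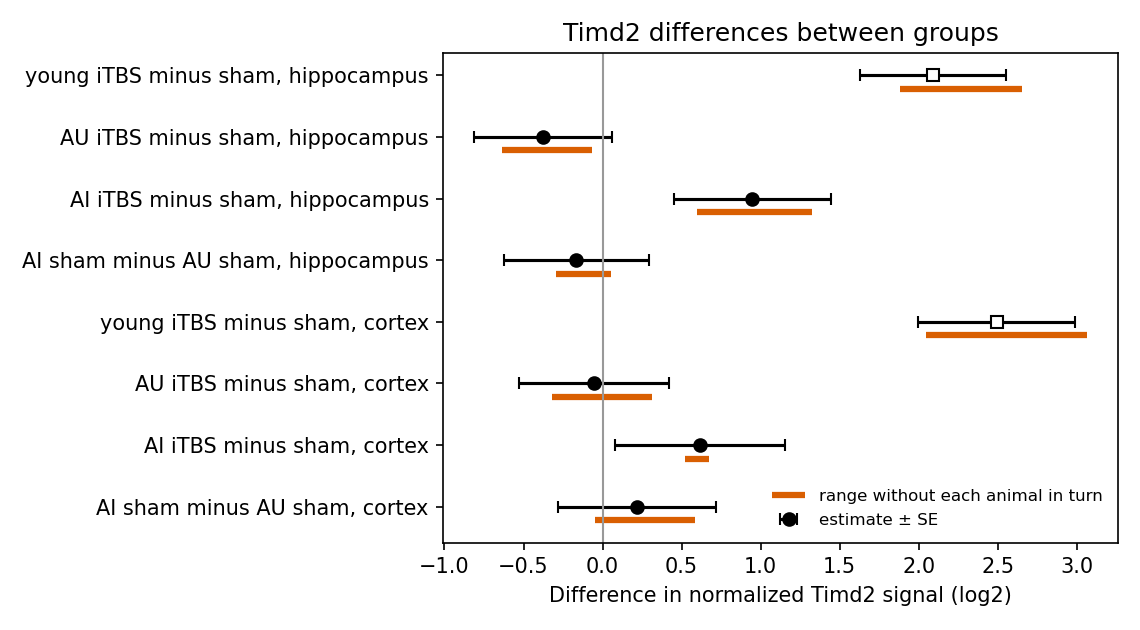
Difference in normalized Timd2 signal (log2) for each comparison and region, with the estimate and its SE from the fit to 24 animals (filled circles, tested in aged animals; open squares, young comparison, a description). Orange bars span the estimates obtained when each animal of the compared groups was left out in turn. The aged estimates lie between -0.38 and 0.95.

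The response of AI and AU animals was compared directly. The AI difference minus the AU difference was 1.32 in hippocampus (SE 0.662, limma unadjusted p = 0.0593, adjusted p = 1) and 0.67 in cortex (SE 0.717, limma unadjusted p = 0.361, adjusted p = 0.835). Across the array 1.71% and 6.37% of probes had an unadjusted p under 0.05 for this difference. Thus a different response of Timd2 in the 2 cognitive groups was not shown at this number of animals. Sham animals of the 2 groups differed by -0.17 in hippocampus (AI minus AU, SE 0.461, limma adjusted p = 1, exact permutation p = 0.657) and by 0.22 in cortex (SE 0.499, limma adjusted p = 0.996, exact permutation p = 0.629), less than the SD of the AU_Sham animals. In these sham comparisons 0% of probes were called, and 4.05% and 6.71% had an unadjusted p under 0.05.

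Timd2 was higher in hippocampus than in cortex of aged rats. Hippocampal signals averaged -1.21 ± 0.69 (SD, n = 16) and cortical signals -1.79 ± 0.63 (SD, n = 16), and the hippocampus was the higher region in 14 of 16 animals. The within-animal difference, with the 4 aged groups weighted equally, was 0.60 (SE 0.129, limma adjusted p = 0.000845), and an exact test over all sign changes of the 16 differences gave a permutation p of 0.000214. With normexp and quantile normalization it was 0.22 (SE 0.0586, limma adjusted p = 0.00399). Regional differences were common, with 39.2% of the 33847 probes called (7084 higher in hippocampus and 6196 higher in cortex). In the 10 aged animals with both regions scanned on the first day it was 0.62 (SE 0.136, limma adjusted p = 0.00453, higher in 9 of 10). In the 6 scanned later it was 0.54 (SE 0.281, limma adjusted p = 0.193, higher in 5 of 6). Of these 6, only AU_iTBS 3 had both regions scanned on the same day. No aged animal had both regions on the same slide, so differences between slides cannot be told apart from the regional one. Among the young animals the 2 regions were less ordered, from -0.61 in Y_iTBS 2 to 1.21 in Y_Sham 2, the latter with neither spot well above background.

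Animals with high Timd2 in one region tended to have high Timd2 in the other. Over the 16 aged animals the Pearson correlation of the regions was r = 0.739 (permutation p = 0.0011, 0.0022 after Benjamini-Hochberg adjustment over the 2 coefficients) and Spearman's rho was 0.624 (permutation p = 0.0116, adjusted p = 0.0116). Without AI_iTBS 1 and AU_iTBS 4, the animals farthest from the median hippocampal signal, r was 0.565 (permutation p = 0.0353, 14 animals) and rho 0.473. Within the first scan day r was 0.783 (10 animals). In the animals scanned on later days it was 0.702 (6 animals, most with their regions scanned on different days). The median over the 30941 probes tested in both regions was an r of 0.01 across the same animals, and 98.1% of these probes had a lower r than Timd2. These are descriptions of 1 set of animals, in which both regions share the animal and, for the most part, the scan day.

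**Figure D3:**
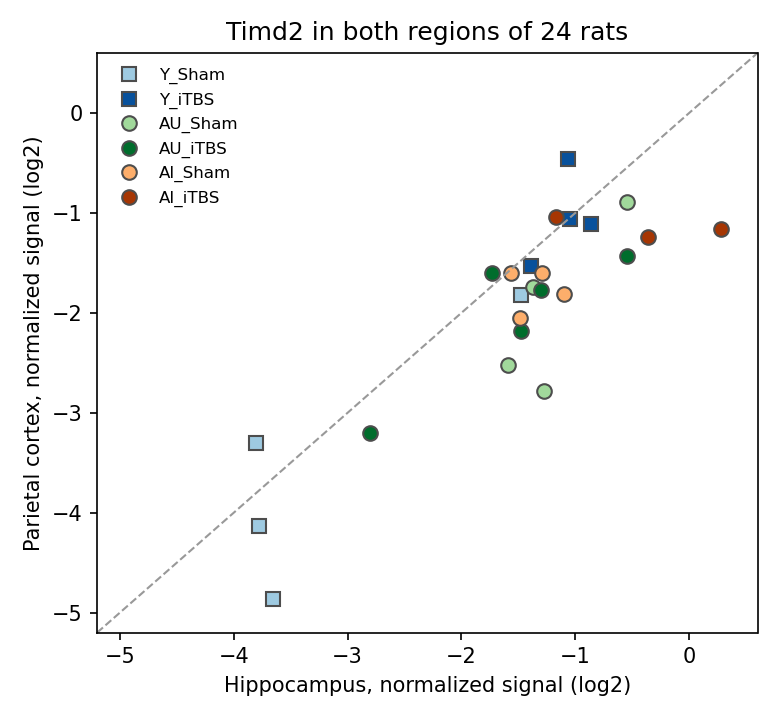
Normalized Timd2 signal of each animal in hippocampus (x axis, log2) against parietal cortex (y axis, log2), with squares for young and circles for aged animals and the dashed line marking equal signal. Most aged animals (14 of 16) lie below the line, and 3 Y_Sham animals together with AU_iTBS 4 hold the low end in both regions.

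Among the relatives of Timd2, Havcr2 (TIM-3, an inhibitory receptor of T and myeloid cells) was well above background in all 24 animals in both regions. In young animals its differences were -0.02 in hippocampus and 0.29 in cortex. In AU animals they were -0.02 (SE 0.184) and -0.34 (SE 0.157), in AI animals 0.37 (SE 0.21) and 0.23 (SE 0.179), none with a limma adjusted p below 0.552. Its hippocampal excess in aged animals was 0.22 (SE 0.0784, limma adjusted p = 0.028). Over the 24 animals, those that chose the gene included, Havcr2 correlated with Timd2 at r = 0.52 in hippocampus and 0.47 in cortex. Over the aged animals alone r was 0.59 and 0.48. Havcr1 (TIM-1, a receptor for phosphatidylserine) was well above background in 0 of 24 animals in either region and was not tested, and Timd4 had no probe by this naming.

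Genes of the TIM-2 ligands had low to moderate correlations with Timd2. These are descriptions, since the 24 animals include the young ones that chose the gene. Fth1, the H-ferritin gene, had r = 0.126 in hippocampus and 0.032 in cortex over 24 animals, and Ftl1, which encodes the light ferritin subunit, at 0.252 and 0.2. Sema4a, the semaphorin ligand, had r = 0.216 and 0.427, and Scara5, a receptor for L-ferritin, -0.126 and -0.365. In the young comparison that chose Timd2, Fth1 differed by 0.00 in hippocampus and 0.09 in cortex, Sema4a by 0.26 in each region, Ftl1 by 0.06 and 0.13, and Scara5 by 0.06 and 0.05. None of the 8 measured genes of ligands and their other receptors was called in any aged comparison of groups, where 0% of all probes were called. In AU cortex, where 8.93% of all probes had an unadjusted p under 0.05, 1 of the 8 was higher at that level, Plxnb3 (a plexin of oligodendrocytes, 0.44), and 1 lower, Ftl1 (-0.44, SE 0.184, limma adjusted p = 0.552). In the other aged iTBS comparisons 0 of the 8 reached it, beside 1.95% to 2.66% of all probes.

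Iron handling genes were read as the wider pathway. Of 23 genes 21 had a probe, and 21 were tested in hippocampus and 20 in cortex. In the AU, AI and AI against AU sham comparisons 0 were called, beside 0% of all probes. Their median differences were 0.00 (AU) and 0.01 (AI) in hippocampus and -0.08 and -0.07 in cortex, beside medians of all probes between -0.01 and 0.04. At an unadjusted p under 0.05, 2 were higher and 1 lower in AU cortex, beside 8.93% of all probes. In the other aged iTBS comparisons 0 differed at that level, beside 1.95% to 2.66% of all probes. Ireb2, an iron sensor that controls ferritin translation, was the one of lowest p in AU cortex (0.61), Steap3, an endosomal iron reductase, in AU hippocampus (-0.25), Tfrc, the transferrin receptor, in AI hippocampus (0.18) and Slc39a14, a metal importer, in AI cortex (0.61). Between regions 3 of the 21 were called, beside 39.2% of all probes, and all 3 were higher in hippocampus, namely Tf (transferrin), Cp (ceruloplasmin) and Hmox1 (heme oxygenase 1).

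Markers of the cells that could carry Timd2 were read beside it. The correlations below include the young animals that chose the gene, and are descriptions. Over 24 animals the mean signal of 13 oligodendrocyte lineage markers correlated with Timd2 at r = 0.153 in hippocampus and 0.298 in cortex, and that of 13 microglia and macrophage markers at 0.314 and 0.404. Of 12 T cell markers 7 were tested in both regions, with r = -0.273 and -0.34, and of 8 B cell markers 4, with 0.031 and -0.078. The mean of the oligodendrocyte markers ran from 6.49 to 6.90 in Y_Sham and from 6.59 to 6.70 in Y_iTBS hippocampus, and that of the microglial markers from 2.97 to 3.18 and from 2.84 to 3.13. Both pairs of ranges overlapped. The T cell marker mean did not overlap in young hippocampus and was lower after iTBS, from 0.40 to 0.53 in Y_Sham and from 0.08 to 0.37 in Y_iTBS, while in young cortex its ranges overlapped. All 8 choroid plexus markers also had the lower mean in Y_iTBS hippocampus (median -0.84, beside -0.02 over all probes). The part of either in the young Timd2 values was not tested. In AI against AU sham cortex, 12 of 13 oligodendrocyte markers had the higher mean in AI (median 0.385, beside 0.011 over all probes). All 4 tested B cell markers were higher after iTBS in AU cortex (median 0.589, beside 0.042). In AI cortex 5 of 13 and 1 of 4 were higher after iTBS. No marker was called in these comparisons, as 0% of all probes were, and their part in the aged Timd2 values was not tested. In the region comparison 10 of 13 oligodendrocyte markers were called higher and 1 lower in hippocampus, 6 of 13 microglial markers were called higher and 0 lower, beside 39.2% of all probes called in either direction, and their part in the regional difference of Timd2 was not tested.

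Of the remaining lists, 13 of 16 phosphatidylserine recognition genes, all 8 endothelial, all 8 choroid plexus and all 7 red blood cell markers had a probe. No member was called in an aged comparison of groups, where 0% of all probes were called. The correlations of their mean signals with Timd2 in hippocampus and cortex were 0.035 and 0.376, -0.16 and -0.024, -0.055 and 0.135, and 0.238 and 0.204. These too include the young animals that chose the gene. In AI hippocampus, where the Timd2 mean was higher after iTBS, all 7 red blood cell markers had the lower mean after iTBS (median -0.64, beside 0.01 over all probes), 3 of them at an unadjusted p under 0.05, beside 1.95% of all probes. All 8 choroid plexus markers had the lower mean there as well (median -0.35). The lower red blood cell markers were not particular to AI hippocampus. All 7 also had the lower mean after iTBS in AU hippocampus (median -0.19) and AU cortex (median -0.40), where the Timd2 mean was not higher. In AI cortex all but 1 did (median -0.525). The part of these markers in the Timd2 values was not tested.

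The members of lowest p of the phosphatidylserine, microglial, oligodendrocyte, endothelial, choroid plexus and red blood cell lists, in that order, were Mertk, Mrc1, Opalin, Pecam1, Kcne2 and Alas2 in AU hippocampus. In AI hippocampus they were Havcr2, P2ry12, Mag, Flt1, Aqp1 and Alas2, among which P2ry12, a microglial receptor, was higher by 0.35 and Alas2, a heme synthesis enzyme, lower (-0.71) after iTBS. In AU cortex they were Havcr2, C1qb, Sox10, Cdh5, Folr1 and Ahsp, and in AI cortex Itgb5, Mrc1, Sox10, Cdh5, Aqp1 and Alas2. No limma adjusted p of these genes passed 0.05, as 0% of all probes did in these comparisons.

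Timd2 lies in a cluster of TIM genes, and its neighbours were followed in the gene order of the rat assembly GRCr8, used here for order only. Of the 10 protein-coding genes on each side, 14 of 20 had a probe and 9 were tested in both regions. Over all animals, those that chose the gene included, their correlations with Timd2 ran from -0.195 to 0.522 in hippocampus. Of these genes 0 reached 0.7 in both regions. Havcr2 had the highest hippocampal value. The nearest measured genes were Dppa1 on one side and Havcr1 on the other, both well above background in 0 animals.

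By Pearson's r without a floor on dim values, the pattern most like that of Timd2 over the 24 animals belonged to LOC102555790 (XR_357830), a long noncoding RNA, with r = 0.69 in hippocampus and 0.712 in cortex among 30940 probes compared. It was the tenth by Spearman's rho and the second with the floor. It too was dim, well above background in 22 of 24 animals in each region. Its hippocampal signals were -3.20, -3.42, -1.85 and -1.64 in Y_Sham and ran from -2.01 to -1.17 in Y_iTBS, and its cortical signals were -2.45, -2.78, -1.38 and -3.25 against -1.50 to -0.68. So Y_Sham 1 and 2 were low for both transcripts in both regions, while Y_Sham 4 was low for it in cortex. Over the 16 aged animals r fell to 0.515 and 0.203. The next were Antxr1 (an anthrax toxin receptor), XR_592919, XM_008760738, Dusp15 (a phosphatase), ENSRNOT00000026748, XM_008764138, Suclg2 (a mitochondrial ligase subunit), Gpr84 (a receptor for medium-chain fatty acids) and XR_591358, with a smaller r of 0.498 to 0.571. None of the compared probes reached 0.7 in both regions. In cortex Y_Sham 4 was far below all other animals for Antxr1 (-3.54), XR_592919 (-1.52) and XM_008764138 (2.55). Over the 16 aged animals Antxr1 had r = 0.268 in hippocampus and -0.319 in cortex. ENSRNOT00000026748 had 0.53 and 0.733 there, and Suclg2 0.53 and 0.671.

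Over the 16 aged animals the list was a different one, with 0 of 10 shared. It held Plek (pleckstrin, r = 0.755 and 0.789), Spink2 (a protease inhibitor, 0.75 and 0.806), Tmem273 (0.736 and 0.808), XM_006255737, Casp4 (an inflammatory caspase), Dok1 (a docking protein), FQ214383, Dock8 (an exchange factor of leukocytes), Fcgr2a (an immunoglobulin Fc receptor) and Slc2a4 (a glucose transporter). Spink2 was well above background in only 3 animals in hippocampus and 10 in cortex. For Plek the correlation over all 24 animals was 0.423 and 0.456, and for Tmem273 it was 0.171 and 0.141. Ranking by Spearman's rho shared 1 of 10 with the list over 24 animals, and a floor on dim values shared 5 of 10.

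The probes most opposite to Timd2 over 24 animals were XM_006249016, Bcl2l10, Ism1, Ppm1f and Sema3c, with r from -0.629 to -0.491. Sema3c, a secreted semaphorin, kept r = -0.351 and -0.664 in the aged animals. Over the aged animals the most opposite were Sf3a3, ENSRNOT00000058215, NM_001134568, Rps6kb1 and Ggps1. All these correlations are descriptions, since the probes were chosen for them.

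**Figure D4:**
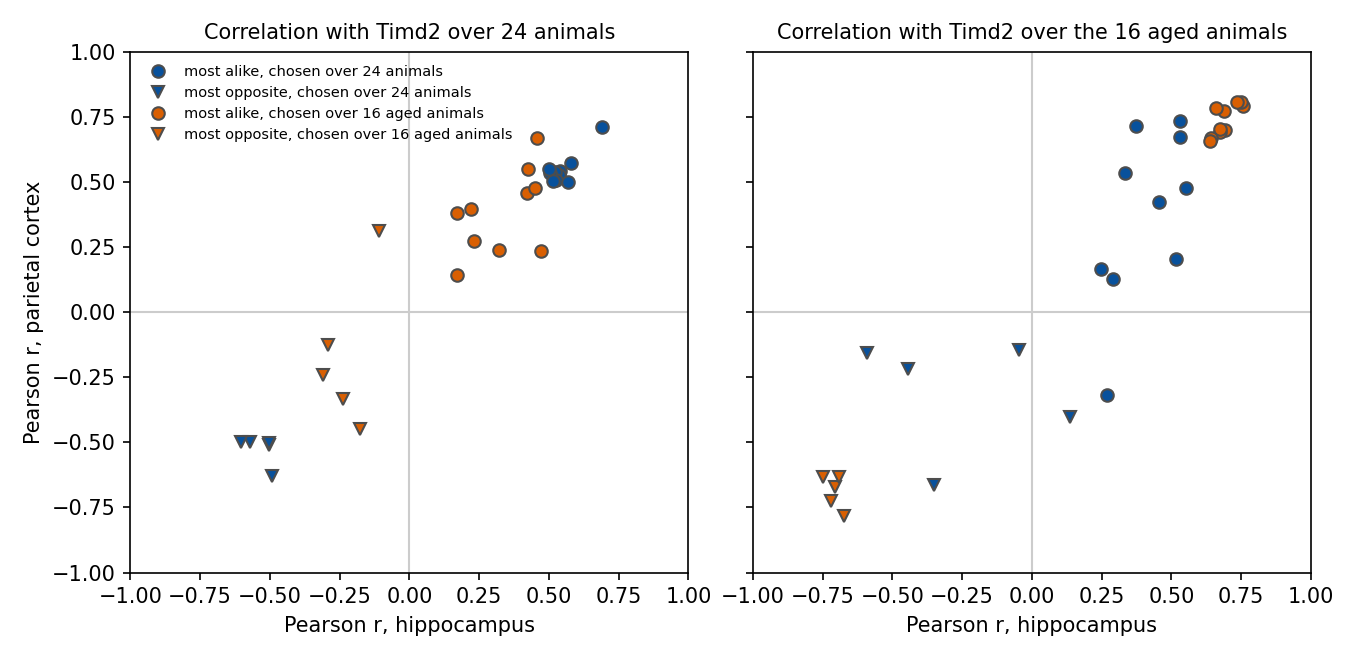
Pearson correlation with Timd2 in hippocampus (x axis) and parietal cortex (y axis) of the probes most alike (circles) and most opposite (triangles), chosen over 24 animals (blue) or over the 16 aged animals (orange). The left panel gives the correlations over 24 animals and the right panel those over the 16 aged animals. Most members of each list lie nearer 0 in the panel that did not choose them, with exceptions such as ENSRNOT00000026748 and Suclg2.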

How the data were processed

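Total RNA was labeled with 1 dye and hybridized to Agilent rat arrays, which the authors read with Feature Extraction 12.0.3.1. The deposited scanner files give processed intensity per spot with no normalization between arrays, and the value table deposited by the authors gives a standard score (z-score) per feature and array. Groups came from the titles. The array with conflicting labels entered no comparison. Following the authors' methods, each array's log2 intensity was converted to a z-score, with control spots left out. The z-score times the mean SD of the arrays (4.08) is the normalized log2 signal. Repeats were averaged per animal. Probes well above background in at least 3 of 24 animals were fitted per region with limma 3.58.1 in R 4.3.3 (6 group means, eBayes, Benjamini-Hochberg over all probes tested). All tests were two-sided, and the fit was tested on simulated data. Accessions were named through RefSeq (GRCr8), which gave 16581 symbols, without coordinates. For genes with several probes the brightest was used.

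Timd2, its lists and tests were chosen with earlier results of these data known. Named genes were the TIM family, the ferritins, Sema4a and Scara5, the member of lowest p of each list in an aged iTBS comparison (single members of the lymphocyte lists are not reported here), the nearest measured neighbours, and the 10 most alike and 5 most opposite probes. Animals stand for replicates. Animals of sham and iTBS groups are different animals that share a replicate number. Same-numbered animals could also share slide and scan day, as all those numbered 1 did within each region. Deviations of same-numbered animals correlated above 0.1 in every pair only for AI cortex (0.159 to 0.545, 3 pairs). The highest value includes the AI_iTBS 2 repeat that resembled AI_Sham 2, and with first arrays only the range was 0.137 to 0.388. The first arrays of these pairs shared slide and scan day, so a pairing of animals and a shared batch cannot be told apart there. The number of animals limits the precision.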

Additional observations from a re-analysis of the deposited data

Results flagged for a closer look

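One Timd2 value stood apart from its group. In hippocampus Y_Sham 3 had a normalized log2 signal of -1.481, and its distance to the nearest other Y_Sham animal was 0.934 of the range of the group, above the limit of 0.829 for 4 samples. In cortex the same animal was again the highest of its group (-1.82), with 0.488 of the range. Of the 10 groups of 4 or 5 animals examined in the 2 regions, 1 passed the limit, and chance flags about 1 in 20. The Y_Sham values took part in the choice of the gene, so this flag is a description and carries no test. The other Y_Sham animals were not well above background, so their values, and with them the share of the range, are only bounds. Without Y_Sham 3 the young difference was 2.66 in hippocampus and 3.06 in cortex.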

How the results depend on the processing

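The AI difference stayed positive, the AU hippocampal difference negative and the regional difference positive under every alternative run, and no aged comparison of groups passed an adjusted p of 0.05 under any. The background correction by normexp with quantile normalization lowered the young differences to 0.57 in hippocampus and 0.75 in cortex, the AI differences to 0.57 and 0.28 and the regional difference to 0.22, and turned the AI against AU sham difference in cortex to -0.014. That sham difference became -0.18 with slide as a random block, which turned the hippocampal one to 0.03, and the first scan day alone gave 0.12 there. The AU cortical difference became 0.035 with first arrays only and 0.031 on the first scan day. The regional difference in animals scanned on later days was 0.54 (adjusted p = 0.193, 6 aged animals). Scan day settings and the left-out repeat were chosen after seeing the data. Leaving out each animal in turn gave young differences of 1.88 to 2.66 in hippocampus and 2.05 to 3.06 in cortex, AU differences of -0.63 to -0.07 and -0.32 to 0.31, AI differences of 0.60 to 1.32 and 0.52 to 0.67, AI against AU sham differences of -0.30 to 0.05 and -0.05 to 0.58, and regional differences of 0.51 to 0.71 (adjusted p up to 0.00491). The AU cortical difference was 0.31 without AU_Sham 1, 0.03 without AU_Sham 2 and 0.24 without AU_iTBS 4, and the AI against AU sham difference was 0.052 in hippocampus without AU_Sham 1 and -0.047 in cortex without AU_Sham 4. With the replicate block the AI differences were 0.84 and 0.47 and the AU differences -0.63 and -0.20, with no call changed, and the called probes in cortex went from 0 to 1 (AU) and from 0 to 3 (AI against AU sham). Without the filter on dim probes 5 probes were called in AI hippocampus, 15 in AU cortex, 1 in AI cortex and 4 in AI against AU sham cortex, and other settings called between 0 and 7 in the aged comparisons of groups (7 in AI hippocampus without AI_iTBS 2), none of them Timd2. The correlation of the regions ran from 0.689 to 0.776. The causes of these shifts were not tested. Signal over background limits the dim animals to a bound.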

Other observations

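One array had labels that named 2 different animals and was placed in no group. Its Timd2 spot had a processed signal of 20.2 and a normalized log2 signal of -2.79, not well above background. Timd2 in cortex of AU_iTBS 4 was -2.76 on the first array and -3.64 on the repeat, a difference of -0.88, while the 2 hippocampal arrays of AI_iTBS 2 differed by 0.19 at signals of 154 and 158.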
